A study of Mus musculus with 15 samples.

Results

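Lx elements are the old long interspersed nuclear elements (LINE-1, or L1) of rodents, the remains of an L1 lineage that spread in the ancestors of mice and rats. The Lx-derived small RNAs of mouse testis were taken from 15 count tables by the repeat annotation that each row carries: class LINE, family L1, and a repeat name starting with Lx, L1_Mus, L1_Mur, L1_Rod or L1VL. Names in the tables end before any _ sign, so that 0 identifiers held one and no L1_Mus, L1_Mur or L1_Rod name could be found. No L1VL name occurred either, and all members were Lx elements of 22 names. They made up 123746 of the 8128951 loci in the tables, where a locus is one genomic interval on one strand to which reads of exactly that extent were assigned. Loci named L1 with nothing after it (14774) or L1Lx (16128) fell outside the selection and were counted with the other L1 names, and what the bare name L1 stands for could not be read from the tables.

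All libraries came from testes of 8-week-old C57Bl/6 male mice and were made from gel-selected small RNA, and no genotype or transgene differed between groups. In one experiment, RNA was treated with CMC, a carbodiimide that forms a stable adduct with pseudouridine (Ψ) and stops reverse transcription there, or was left without CMC as a mock control (3 libraries each). In the other, RNA was incubated with an antibody against Ψ, giving input, Ψ-IP and flow-through libraries (3 each), the last being the unbound RNA. These comparisons ask whether the piRNAs carry Ψ: such molecules should be recovered by the antibody and should be missing after CMC. The labels do not say that replicates came from separate animals, so p-values measure the spread between these libraries, which may be technical. The experiments were built with different library kits. The sample titles call the mock libraries untreated, and the study describes mock treatment for Arabidopsis RNA. Whether the mouse RNA went through those steps is not stated there, so input and mock levels differ in kit and may differ in handling.

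PIWI-interacting RNAs (piRNAs) are germline small RNAs that guide PIWI proteins to complementary transcripts, among them those of transposons. In the mouse testis, long single-stranded transcripts of piRNA clusters are cut into piRNAs that begin mostly with uridine and are trimmed to a length set by the bound protein: MIWI holds the longer ones and MILI the shorter ones. A slicer cut in the middle of a target can also start a piRNA on the opposite strand whose first bases pair with those of the guide. Active L1 elements of the mouse belong to the L1Md subfamilies, whereas Lx copies are fossils that persist as inserts within other transcripts. Because the tables were limited by the authors to reads in annotated piRNA clusters, the Lx loci are Lx fragments within clusters and not Lx elements of the whole genome.

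The following sequences come from the 9 most abundant 5′ ends with sequence and from loci named for a change. Each printed one shows a piRNA with a measured response, or its partner with the same 5′ end. Lx5 piRNA 1, with log2 fold changes of 0.05 in Ψ-IP against input and 0.13 after CMC, is not printed. The sequences are given 5′ to 3′ as DNA, with the first base in capitals where it is T, the uridine of the RNA. They were read from GENCODE M21 transcripts of GRCm38, the assembly also called mm10.
Lx10 piRNA 1: Ttgtatgtatatgttttcagagttaaccca
Lx5 piRNA 2: Tcacataactccggccctacttcctactc
Lx5 piRNA 3: Tcacataactccggccctacttcctactct
Lx5 piRNA 4: Taactccggccctacttcctactctcctc
Lx4B piRNA 1: Ttggatggagcttggaactcttttatgga
Lx4B piRNA 2: Taggtcttcatttaggtccggaacaactgg
Lx5 piRNA 5: Tggcacatcagtcactgtaggactaggc
Lx5 piRNA 8: Ttgctacatatgtgcagggttgcagcaga
Lx5 piRNA 6: Taggactaggctcatcctctcccac
Lx5 piRNA 7: Taggactaggctcatcctctcccacagatg

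Lx10 piRNA 1 lies at chr8:93421144-93421173 on the minus strand, in an exon of the lincRNA Gm30132 and within an intron of the antisense gene Gm45765. Its level, as counts per 1000000 of the library total (CPM), was 14.1, 14.7 and 15.4 in input replicates 1, 2 and 3 and 54.5, 35.7 and 32.9 in Ψ-IP. All Ψ-IP libraries were above all input libraries, and the log2 fold change was 1.32 (SE 0.22, edgeR adjusted p = 5.73e-08). The other sequences lie on the plus strand in exons of the lincRNA Gm21269, a cluster transcript on chromosome 7. Lx5 piRNA 2 at chr7:73820105-73820133 had 1.64, 2.17 and 0.795 CPM in input and 8.13, 6.22 and 8.40 CPM in Ψ-IP, and was chosen for a rise in all 9 pairs of libraries. Its log2 fold change was 2.18 (SE 0.29, edgeR adjusted p = 1.04e-11), and that of Lx5 piRNA 3, which ends 1 base later, was 1.82 (SE 0.31). Lx5 piRNA 4 starts within the same stretch, at chr7:73820110-73820138, and had a log2 fold change of 1.83 (SE 0.41). The 3 molecules overlap and are not independent of one another. In flow-through, Lx5 piRNA 2 had 18.1, 12.8 and 12.7 CPM, above all Ψ-IP and all input libraries, and piRNA 3 and piRNA 4 were likewise higher in every flow-through library than in every Ψ-IP library. Lx10 piRNA 1 differed from them there, with 2.42, 1.89 and 2.73 CPM in flow-through, below its input level. Single loci were not tested against flow-through.

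Within the same transcript lay piRNAs that were lower in the antibody fraction. Lx4B piRNA 2 at chr7:73836876-73836905 had 19.6, 20.6 and 21.1 CPM in input and 7.54, 6.91 and 8.40 CPM in Ψ-IP. No Ψ-IP value reached an input value, and the log2 fold change was -1.55 (SE 0.23, edgeR adjusted p = 2.50e-09). Lx5 piRNA 8 at chr7:73820354-73820382, the most abundant of the 10 printed, had 41.3, 45.6 and 41.8 CPM in input and 26.1, 19.0 and 28.7 CPM in Ψ-IP, a log2 fold change of -0.93 (SE 0.21). Lx4B piRNA 1 at chr7:73836274-73836302 and Lx5 piRNA 5 at chr7:73820202-73820229 had log2 fold changes of -1.30 (SE 0.29) and -0.93 (SE 0.25). In flow-through, Lx4B piRNA 2 had 14.1, 15.1 and 18.1 CPM and Lx5 piRNA 8 had 33.6, 39.2 and 42.2 CPM, above all Ψ-IP libraries. Thus, against input, neighbours within 1 transcript and even within 1 Lx5 fragment moved in opposite directions.

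Lx5 piRNA 6 and piRNA 7 share their first base and differ at the 3′ end. The shorter molecule, at chr7:73820219-73820243 and 25 nucleotides (nt) long, had 0.562, 0.753 and 0.699 CPM in mock libraries and 1.84, 3.11 and 3.11 CPM after CMC. It rose by 1.87 on the log2 scale (SE 0.23, edgeR adjusted p = 1.23e-07). The longer molecule, at chr7:73820219-73820248 and 30 nt long, had 5.05, 6.15 and 5.99 CPM in mock and 5.97, 7.95 and 7.10 CPM after CMC, with groups that overlapped and a log2 fold change of 0.21 (SE 0.15, adjusted p = 0.579).

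Sequence was at hand for 7516 member loci (6.07%), those inside GENCODE transcripts, which held 3.12% to 5.47% of the Lx counts depending on the group. The first base was therefore described and not tested. Among loci of at least 24 nt with sequence, T came first in 83.7% ± 0.60 of the input counts (SD, n = 3), in 87.5% ± 0.21 of the Ψ-IP counts and in 78.3% ± 0.60 of the flow-through counts. The share was 82.5% ± 0.12 in mock and 80.6% ± 1.28 after CMC. The median T content was 33.3% in the 39 such loci higher in Ψ-IP than in input, 23.3% in the 34 lower ones and 27.6% in the 449 without a call. The first 2 sets came from only 4 insertions each, with 20 and 18 loci in a single one.

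Library totals ran from 11575705 to 58399368 counts, and Lx loci received between 137306 and 601230 of them. After removal of loci with no more than 20 counts over an experiment, 7355 Lx loci remained in the IP experiment and 6335 in the CMC experiment, with 85.8% and 91.7% of the Lx counts. Intervals are not given for single values, since CPM values carry counting error and library error together and the replicate spread holds both. Lx elements are present in many similar copies, and how reads with several alignments were assigned is not given in the sources used here, so the place of a single Lx locus is uncertain where such copies exist. In whole tissue, fewer cells that make a piRNA and less of it per cell cannot be told apart.

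Lx piRNAs came unevenly from the subfamilies and insertions. In input, Lx5c and Lx9 each contributed 21.4% of the Lx counts, Lx10 13.9% and Lx8 11.5%, and the remaining 18 names shared the rest. An insertion is defined here as a run of loci with one repeat name on one chromosome with gaps of at most 1000 bases, which gave 313 insertions on 19 chromosomes. The most abundant insertion of each input library held 14.2% ± 0.42 of its Lx counts (SD, n = 3), the top 10 held 66.9% ± 0.23 and the top 20 held 82.0% ± 0.13. In mock libraries the most abundant one held 32.2% ± 0.95. Of the 313 insertions, 191 lay outside annotated genes.

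Most insertions were read from nearly 1 strand. Of the 95 insertions that averaged 100 counts or more, 91 had at least 95% of their counts on a single strand, and 74.95% ± 0.16 of all Lx counts in input lay on the minus strand of the genome. An overlap of 10 bases between the 5′ ends of opposite strands, the distance that slicer cuts leave, was the most frequent one in 4 of the 5 groups. Of the Lx counts in the pooled input libraries, 16.7% lay at loci with a read on the other strand whose 5′ end overlapped by 10 bases, against 2.55% to 7.01% at each of the other overlaps among 23 tried (median 4.12%). The share was 11.9% in Ψ-IP (median of the others 0.987%), 12.6% in flow-through (median 2.84%) and 14.7% after CMC (median 2.72%). In mock it was 10.3% and came second, since another overlap reached 12.2%. A single read counts as a partner, so the share grows with depth and is not compared between groups.

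Lx piRNAs were most often 30 nt long in all 15 libraries. The 30-nt share of the Lx counts was 34.7%, 35.3% and 34.4% in input replicates 1, 2 and 3 and 36.7%, 37.5% and 37.2% in Ψ-IP. Every Ψ-IP library was above every input library, by 2.36 percentage points on average, with p = 0.1 in a two-sided exact permutation test, the smallest p that 3 against 3 libraries allow. The 25- to 27-nt share was 9.46% ± 0.30 in input and 7.38% ± 0.60 in Ψ-IP. Over all loci of the tables the 30-nt share was 29.9% ± 0.18 and 30.6% ± 0.29, and the 25- to 27-nt share 13.7% ± 0.315 and 12.5% ± 0.49.

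In the CMC experiment the lengths moved the other way. The 30-nt share was 31.19%, 31.02% and 30.74% in mock and 30.2%, 30.3% and 29.6% after CMC, without overlap, a difference of -0.95 percentage points (two-sided exact permutation p = 0.1). With same-numbered libraries paired, the exact p was 0.25, the smallest that 3 pairs allow. Counting each locus once gave -0.35 (exact permutation p = 0.6). The 25- to 27-nt share was 12.3% ± 0.10 in mock and 14.6% ± 0.41 after CMC. Over all loci the 30-nt share was 25.96%, 25.64% and 24.68% in mock replicates 1, 2 and 3 and 24.82%, 24.65% and 23.22% after CMC. There the groups overlapped, but each CMC library lay below the mock library of the same number, and the 25- to 27-nt share was 19.2% ± 0.47 in mock and 20.7% ± 0.41 after CMC, so that the shift in length was not particular to Lx.

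**Figure D1:**
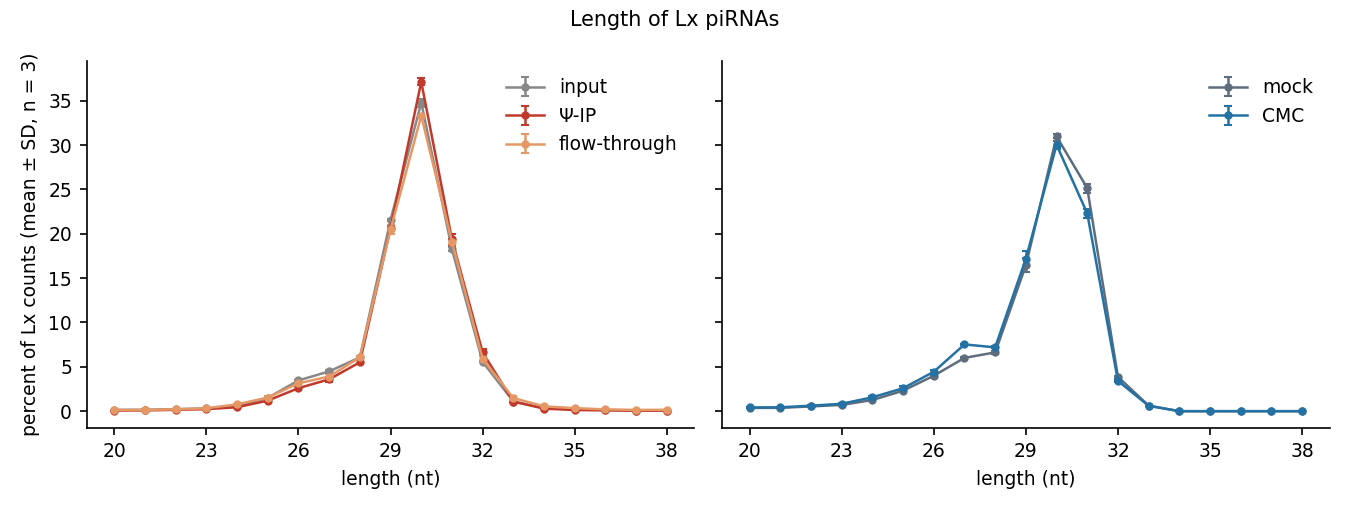
Length of Lx piRNAs: the share of Lx counts (percent) at each length (nt), as means over 3 libraries with SD, for the IP experiment (left) and the CMC experiment (right). All groups peak at 30 nt, where Ψ-IP (37.1%) lies above input (34.8%) and CMC (30.03%) below mock (30.98%).

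Lx piRNAs as a whole were recovered by the Ψ antibody above their input level. Their summed level was 10599, 10594 and 10547 CPM in input replicates 1, 2 and 3 and 12001, 11862 and 11886 CPM in Ψ-IP. All Ψ-IP libraries lay above all input libraries, and the log2 fold change was 0.17 (SE 0.02, edgeR adjusted p = 0.000217). At the level of repeat families, 36.1% of the 36 groups tested passed the threshold of adjusted p under 0.01. The summed flow-through level was 9652, 9526 and 9781 CPM, below every input library, and the log2 fold change of Ψ-IP against flow-through was 0.23 (SE 0.03, edgeR adjusted p = 6.86e-05), where 57.1% of 35 groups passed. The 2 comparisons share the Ψ-IP libraries.

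Against input, no difference was detected between the recovery of Lx piRNAs and that of other L1 piRNAs, whereas against flow-through their values were further apart. The L1Md piRNAs, from the subfamilies that hold the active elements, had a log2 fold change of 0.17 in Ψ-IP against input (edgeR adjusted p = 0.0233), and the other L1 names had 0.15 (adjusted p = 0.00274). The log2 ratio of Lx to L1Md counts was 1.96, 1.94 and 1.99 in input and 1.99, 1.83 and 2.07 in Ψ-IP. The groups overlapped and the means differed by -0.00236 (two-sided exact permutation p = 0.9), less than the SD of 0.13 among the Ψ-IP libraries. The ratio of Lx to the other L1 names differed by 0.02 on the log2 scale (exact permutation p = 0.5). Cluster loci outside repeats had a log2 fold change of -0.01 (adjusted p = 0.65).

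Against flow-through, the L1Md piRNAs had a log2 fold change of 0.79 (SE 0.07, edgeR adjusted p = 3.81e-07). The other L1 names had 0.50 (SE 0.04, adjusted p = 1.67e-07), and both lay above the 0.23 of Lx. The other names include L1Lx (0.65, SE 0.06) and the bare name L1 (1.03, SE 0.10), each fitted among repeat names. Their part in the difference from Lx was not tested. The log2 ratio of Lx to L1Md counts was 2.65, 2.45 and 2.46 in flow-through, above all Ψ-IP libraries, and the difference of Ψ-IP from flow-through was -0.55 (two-sided exact permutation p = 0.1, the smallest p that the design allows). The ratio of Lx to the other L1 names was -0.27, -0.43 and -0.39 in flow-through and -0.60, -0.70 and -0.60 in Ψ-IP, again without overlap (difference -0.27, exact permutation p = 0.1). These ratio tests against flow-through were added after the data had been seen.

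After CMC, the summed Lx level was lower. It was 10055, 10295 and 10217 CPM in mock and 9429, 9438 and 9315 CPM after CMC, without overlap, with a log2 fold change of -0.10 (SE 0.02, edgeR adjusted p = 0.00577). In this comparison 16.2% of 37 groups passed. The fall rested on few sources: without the single most abundant insertion in mock, an Lx9 fragment on chromosome 4, it was -0.02 (adjusted p = 0.385), without the 3 most abundant insertions in input it was -0.03 (adjusted p = 0.224), and without the 10 most abundant loci it was -0.06 (adjusted p = 0.097). It also missed the threshold without CMC replicate 3 (-0.10, adjusted p = 0.0273), mock replicate 2 (-0.09, adjusted p = 0.0228) or mock replicate 3 (-0.12, adjusted p = 0.0212). The L1Md and other L1 piRNAs had log2 fold changes of -0.18 (adjusted p = 0.00467) and -0.17 (adjusted p = 0.000389). The log2 ratio of Lx to L1Md was higher by 0.08 after CMC (two-sided exact permutation p = 0.2) and that of Lx to the other L1 names by 0.06 (p = 0.1), and in the latter the groups did not overlap. With same-numbered libraries paired, the exact permutation p was 0.25 for each, the smallest that 3 pairs allow.

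**Figure D2:**
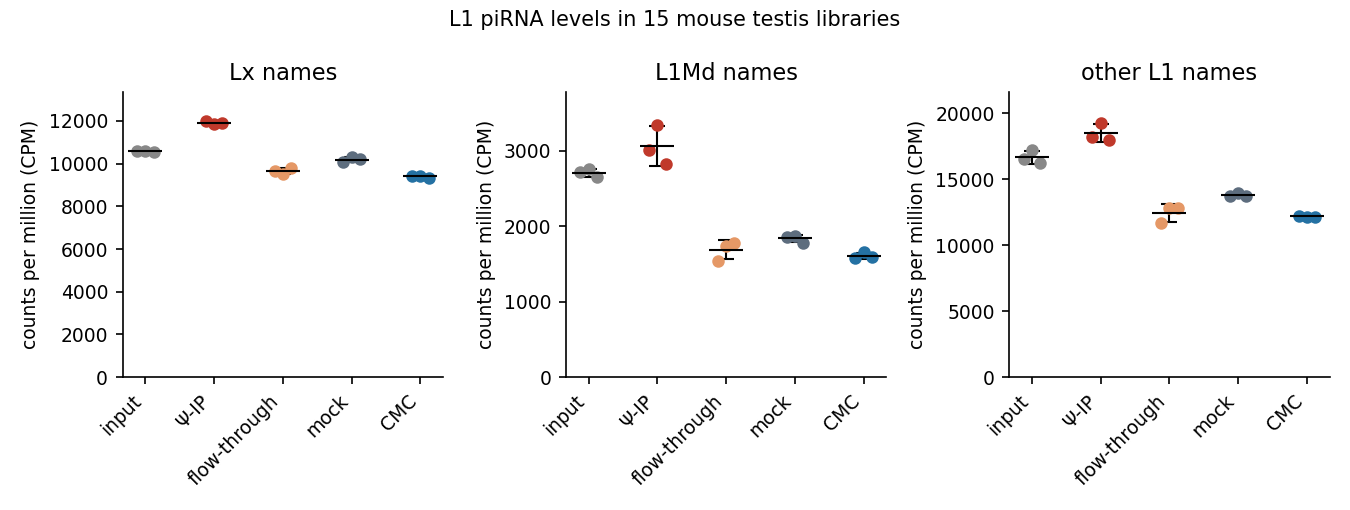
Summed level of Lx, L1Md and other L1 piRNAs (CPM, linear axes from 0, one panel each) in the 15 libraries, with points for libraries and lines for group means with SD. In the Lx panel the Ψ-IP libraries (11862 to 12001) lie above the input libraries (10547 to 10599) and the flow-through libraries (9526 to 9781) below them, and the CMC libraries (9315 to 9438) lie below the mock libraries (10055 to 10295).

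Subfamilies differed in their recovery by the antibody. Subfamilies, insertions and loci named for a rise or a fall were chosen among those that moved alike in all 9 pairs of libraries, so the separation of their groups follows from the choice. Of the 22 names, 7 were higher in Ψ-IP than in input (31.8%, against 11.3% of the 531 repeat names tested) and 3 were lower (13.6%, against 10.2%). The median log2 fold change was 0.24 over the Lx names and 0.00467 over all names. The subfamily named simply Lx, a low-abundance group, had the largest rise, with 125, 129 and 120 CPM in input and 322, 263 and 290 CPM in Ψ-IP. The log2 fold change was 1.24 (SE 0.07, edgeR adjusted p = 1.10e-06).

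Lx10, Lx11, Lx6 and Lx2 rose less. Lx10 had 1540, 1424 and 1460 CPM in input and 1981, 1765 and 2011 CPM in Ψ-IP, a log2 fold change of 0.40 (SE 0.05, edgeR adjusted p = 0.00013). Lx11 had 648, 624 and 643 CPM in input and 865, 854 and 826 CPM in Ψ-IP, and rose by 0.43 on the log2 scale (SE 0.05). Lx6 and Lx2 had log2 fold changes of 0.49 (SE 0.05) and 0.53 (SE 0.07), Lx3B had 0.39 (SE 0.07; adjusted p = 0.011 without input replicate 3), and Lx2B2 was the seventh to pass (0.37, adjusted p = 0.00163).

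The 2 most abundant subfamilies did not pass in this comparison. Lx5c had 2260, 2277 and 2245 CPM in input and 2455, 2631 and 2563 CPM in Ψ-IP, which did not overlap, with a log2 fold change of 0.19 (SE 0.05, edgeR adjusted p = 0.0104), and it passed with library totals in place of the trimmed mean of M-values (TMM), the scaling used for all fits (0.17, adjusted p = 0.00366). Lx9 had 2217, 2321 and 2244 CPM in input and 2529, 2538 and 2310 CPM in Ψ-IP, where the lowest Ψ-IP library fell below the highest input library (log2 fold change 0.14, SE 0.05, adjusted p = 0.0639). Lx8 (0.13, adjusted p = 0.0799), Lx5 (0.15, adjusted p = 0.06) and Lx7 (0.01, adjusted p = 0.96) did not pass either.

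Lx8b, Lx5b and Lx4B fell. Lx8b had 660, 647 and 658 CPM in input and 543, 495 and 501 CPM in Ψ-IP, a log2 fold change of -0.34 (SE 0.05, edgeR adjusted p = 0.000327). Lx5b had 306, 296 and 312 CPM in input and 249, 216 and 247 CPM in Ψ-IP (log2 fold change -0.34, SE 0.06), and missed the threshold without input replicate 3 (adjusted p = 0.0102). Lx4B had 228, 233 and 230 CPM in input and 182, 170 and 179 CPM in Ψ-IP (log2 fold change -0.36, SE 0.05).

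Against the unbound RNA, the order of the subfamilies was another one. With the same Ψ-IP libraries, 9 names were higher (against 20.1% of 522 names) and 7 lower (against 18.4%) than in flow-through, and the median log2 fold change was 0.12, against 0.02 over all names. Lx9, which did not pass against input, had 1258, 1540 and 1581 CPM in flow-through, below all Ψ-IP libraries, with a log2 fold change of 0.77 (SE 0.08, edgeR adjusted p = 1.81e-05). Lx11 had 476, 474 and 489 CPM in flow-through (log2 fold change 0.84, SE 0.06), and Lx3B had 22.61, 23.68 and 24.95 CPM against 54.7, 53.0 and 49.3 CPM in Ψ-IP (1.15, SE 0.09). Lx2 and Lx7 rose by 0.73 (SE 0.08) and 0.65 (SE 0.09) on the log2 scale.

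The names that were lower than in flow-through included Lx3C, with 45.2, 39.3 and 34.9 CPM in flow-through and 18.9, 20.6 and 18.8 CPM in Ψ-IP. Its log2 fold change was -1.03 (SE 0.12, edgeR adjusted p = 3.58e-05), whereas against input it was 0.28 (adjusted p = 0.0716). Lx4A (-0.71, SE 0.10), Lx5b (-0.54, SE 0.07), Lx5 (-0.50, SE 0.07) and Lx4B (-0.46, SE 0.06) were also lower. Lx8b, which was lower in Ψ-IP than in input, had 452, 489 and 495 CPM in flow-through and did not differ past the threshold there (0.12, adjusted p = 0.155). The subfamily Lx had 240, 212 and 207 CPM in flow-through, between its input and Ψ-IP levels.

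After CMC, 1 name rose (against 1.87% of 536 names) and 2 fell (against 3.73%), and the median log2 fold change over the 22 names was -0.02, against 0.01 over all names. Lx9, the largest Lx source in mock with 40.8% of the counts, had 4039, 4170 and 4260 CPM in mock and 3474, 3239 and 3284 CPM after CMC. It fell by 0.34 on the log2 scale (SE 0.04, edgeR adjusted p = 0.000275). Lx5c had 1641, 1774 and 1768 CPM in mock and 1436, 1557 and 1571 CPM after CMC, and fell by 0.21 (SE 0.04, adjusted p = 0.00471). Lx10 went the other way, with 951, 899 and 830 CPM in mock and 1181, 1228 and 1042 CPM after CMC, and rose by 0.34 (SE 0.06, adjusted p = 0.00355). Lx10 thus was higher both in Ψ-IP and after CMC. Without mock replicate 2 or without mock replicate 3, only 1 name passed: Lx5c missed the threshold (adjusted p = 0.0579 and 0.0392) and so did Lx10 (adjusted p = 0.0344 and 0.0346). Lx10 also missed it without CMC replicate 1 (adjusted p = 0.01004), and Lx5c with library totals in place of TMM (adjusted p = 0.0227).

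**Figure D3:**
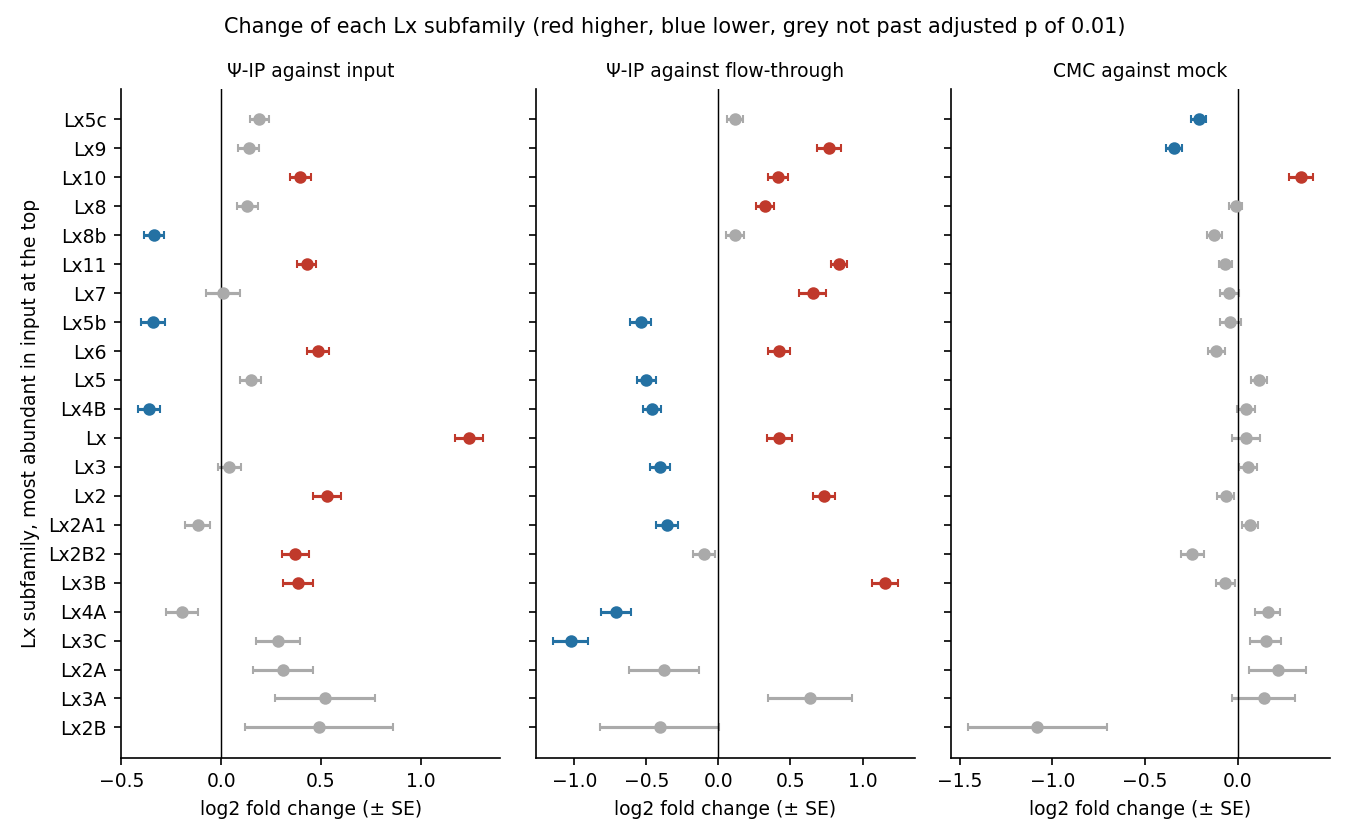
Log2 fold change of each Lx subfamily with its SE in Ψ-IP against input, Ψ-IP against flow-through and CMC against mock, one panel each, in red (higher) or blue (lower) where adjusted p was under 0.01 and in grey otherwise. The subfamily Lx leads in Ψ-IP against input (1.24), Lx3B in Ψ-IP against flow-through (1.15), and Lx9 has the largest called fall after CMC (-0.34).

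Single insertions carried most of these values, and 5 of them are described first because they were the most abundant in input. An Lx5c fragment at chr18:67051663-67052789, outside annotated genes and read from the minus strand, had 1525, 1539 and 1449 CPM in input and 1725, 1922 and 1803 CPM in Ψ-IP. It rose by 0.33 on the log2 scale (SE 0.07, edgeR adjusted p = 0.00116). It had 1398, 1524 and 1521 CPM in mock and 1178, 1279 and 1292 CPM after CMC, a fall of 0.30 (SE 0.05, adjusted p = 0.00124). In neither experiment did the groups overlap. The rise missed the threshold without input replicate 1 (adjusted p = 0.0143) or 3 (adjusted p = 0.0165), and the fall without mock replicate 2 (adjusted p = 0.0327) or 3 (adjusted p = 0.0247) or with library totals in place of TMM (adjusted p = 0.01003).

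An Lx9 fragment at chr4:94309055-94309981, in an intron of the lincRNA Gm12648, was by far the largest Lx source in the CMC experiment. It had 3172, 3263 and 3398 CPM in mock and 2736, 2470 and 2523 CPM after CMC, without overlap, and fell by 0.40 on the log2 scale (SE 0.06, edgeR adjusted p = 9.83e-05). In the IP experiment it had 1214, 1270 and 1225 CPM in input, 1437, 1426 and 1315 CPM in Ψ-IP and 568, 780 and 795 CPM in flow-through, so that the 3 groups stood apart. The log2 fold change against flow-through was 1.17 (SE 0.12, adjusted p = 6.65e-07), and against input it was 0.23 (SE 0.07, adjusted p = 0.0191), which did not pass.

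An Lx10 fragment at chr18:67048527-67048878 lies on the same strand as the Lx5c fragment, with 2 other Lx insertions between them, and had a log2 fold change of the opposite sign after CMC. Its level was 700, 650 and 597 CPM in mock and 920, 947 and 786 CPM after CMC, without overlap, a rise of 0.39 on the log2 scale (SE 0.07, edgeR adjusted p = 0.00131). Without CMC replicate 2 (adjusted p = 0.0171), mock replicate 2 (adjusted p = 0.0256) or mock replicate 3 (adjusted p = 0.0309) the rise missed the threshold, and the difference between the 2 fragments was not tested. It rose in Ψ-IP as well, from 1102, 1008 and 1039 CPM in input to 1424, 1277 and 1506 CPM (0.47, SE 0.08, adjusted p = 3.29e-05). Its 25- to 27-nt share was 22.1% in mock and 26.2% after CMC, against 8.25% and 9.34% for the Lx5c fragment, and the part of these short molecules in the rise was not tested.

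The fourth, an Lx5c fragment at chr15:78663772-78664359, had 666, 664 and 728 CPM in input and 646, 629 and 685 CPM in Ψ-IP. The groups overlapped and the log2 fold change was -0.01 (SE 0.08, edgeR adjusted p = 0.928), although it carries the same subfamily name as the fragment that rose. The fifth, an Lx11 fragment at chr6:127836069-127837632 on the plus strand, had 629, 608 and 624 CPM in input and 852, 843 and 814 CPM in Ψ-IP. It rose by 0.49 (SE 0.07, adjusted p = 1.22e-05) and by 1.07 against flow-through (SE 0.08; 0.86 with plain library totals), where it had 456, 457 and 470 CPM. After CMC it had 418, 421 and 437 CPM against 437, 451 and 429 CPM in mock, which overlapped (-0.10, adjusted p = 0.376).

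Across insertions, 26 of 212 tested were higher in Ψ-IP than in input (12.3%, against 7.74% of 3979 insertions of all repeats) and 16 were lower (7.55%, against 8.17%). The median log2 fold change was 0.16, against -0.004 over all insertions. Similar copies that share reads would be counted here as separate insertions. Without input replicate 1 the 42 calls dropped to 26, of which 16 were higher and 10 lower. Against flow-through, 51 of 211 were higher (against 10.8%) and 19 lower (against 8.01%), and the scaling decided part of this. TMM raised every insertion in that comparison by 0.21 on the log2 scale over plain library totals, so the fold changes printed here for insertions against flow-through are higher than their CPM values give. With library totals, an alternative chosen after seeing the data, 40 Lx insertions were higher (19.0%, against 8.61% of all) and 24 lower (11.4%, against 12.4%), and the median fell from 0.30 to 0.10 while that over all insertions went from -0.05 to -0.25.

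Among called insertions that averaged 100 counts or more and moved alike in all 9 pairs of libraries, those with the largest rises in Ψ-IP were short. The Lx10 fragment that holds Lx10 piRNA 1, at chr8:93421117-93421384, had 58.3, 63.0 and 58.2 CPM in input and 176, 142 and 141 CPM in Ψ-IP. It rose by 1.41 on the log2 scale (SE 0.10, edgeR adjusted p = 8.36e-11), and with 13.8, 18.7 and 19.7 CPM in flow-through it rose by 3.35 (SE 0.15) against the unbound RNA. An 82-base fragment named Lx at chr18:67051189-67051270 had 103, 108 and 101 CPM in input and 288, 238 and 261 CPM in Ψ-IP (log2 fold change 1.39, SE 0.09). In both, all Ψ-IP libraries were above all others of that experiment. Fragments of Lx2B2 at chr2:151327797-151327909 (1.34, SE 0.16) and of Lx2 at chr7:69883194-69883397 (1.24, SE 0.17) followed, from input levels of at most 6.70 CPM. Both were also higher in flow-through than in input, with 10.8, 9.44 and 10.9 CPM for Lx2B2 and 12.6, 9.82 and 12.65 CPM for Lx2, and neither passed in Ψ-IP against flow-through (0.56, adjusted p = 0.0143, and 0.46, adjusted p = 0.0787).

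Under the same limits on counts and pairs, the largest falls in Ψ-IP against input were those of an Lx4B fragment at chr3:20466888-20467050, with 17.2, 19.9 and 15.4 CPM in input and 8.56, 9.33 and 8.90 CPM in Ψ-IP (log2 fold change -0.91, SE 0.13, edgeR adjusted p = 9.78e-06), and of an Lx11 fragment at chr10:75836693-75837092 (-0.90, SE 0.17). The latter overlaps an exon of Gstt2, a glutathione S-transferase gene, and had 20.6% of its input counts on the plus strand, opposite to the gene. An Lx8 fragment at chr5:113322892-113323170 had 96.6, 106 and 97.6 CPM in input and 54.3, 53.4 and 57.1 CPM in Ψ-IP (-0.81, SE 0.09). A second Lx8 fragment, at chr11:103424974-103425153, had 31.72, 31.74 and 28.98 CPM in input and 17.6, 17.8 and 16.7 CPM in Ψ-IP (-0.77, SE 0.11). Against flow-through, the Lx4B fragment (-0.88, SE 0.15) and the Lx8 fragment on chromosome 5 (-1.10, SE 0.10) passed, whereas the Lx11 fragment (-0.74, adjusted p = 0.014) and the Lx8 fragment on chromosome 11 (-0.10, adjusted p = 0.632) did not. With library totals the latter values were -0.95 (adjusted p = 0.00231), which passed, and -0.30 (adjusted p = 0.0913).

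After CMC, 2 of 223 insertions were higher (0.897%, against 0.549% of 4372) and 8 were lower (3.59%, against 1.37%). Without CMC replicate 2, mock replicate 2 or mock replicate 3 the 10 calls became 5, 2 and 2. With library totals in place of TMM they became 2 higher and 2 lower (against 0.869% and 0.663% of all). The largest of the 8 falls was that of an Lx9 fragment at chr7:73803055-73803462, in an intron of the lincRNA Gm10619. It had 259, 276 and 271 CPM in mock and 196, 184 and 179 CPM after CMC (log2 fold change -0.58, SE 0.06, edgeR adjusted p = 4.00e-06). In the IP experiment it had 198, 225 and 201 CPM in input and 247, 297 and 237 CPM in Ψ-IP, a rise of 0.38 (SE 0.09, adjusted p = 0.00341) that missed the threshold without input replicate 1 (adjusted p = 0.0529), input replicate 3 (adjusted p = 0.0297) or Ψ-IP replicate 2 (adjusted p = 0.0264), or with library totals (adjusted p = 0.0108).

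The other insertions named for their change after CMC were smaller. An Lx2B2 fragment at chr2:151153624-151153777 had 127, 153 and 129 CPM in mock and 93.8, 114 and 117 CPM after CMC, and fell by 0.39 (SE 0.08, edgeR adjusted p = 0.00257). Another at chr2:151252898-151253052 fell by 0.38 (SE 0.09), and both were higher in Ψ-IP than in input, by 0.89 (SE 0.13) and 0.81 (SE 0.13). Whether these 2 fragments of the same name share reads could not be told from the counts, so they may not be independent. The Lx8 fragment on chromosome 11 described above, with 45.7, 48.2 and 46.4 CPM in mock and 35.1, 37.4 and 40.1 CPM after CMC, had a log2 fold change of -0.38 (SE 0.07, adjusted p = 0.0016) although it was lower in Ψ-IP. An Lx10 fragment at chr12:98414901-98415038 rose from 22.7, 21.6 and 20.1 CPM to 27.6, 34.9 and 29.9 CPM (0.46, SE 0.08, adjusted p = 0.00132) and was lower in Ψ-IP than in input (-0.57, SE 0.11). With library totals the Lx8 (adjusted p = 0.0122) and both Lx2B2 falls (adjusted p = 0.0216 and 0.0537) missed the threshold. All 4 calls after CMC missed it without mock replicate 2 (adjusted p = 0.0256 to 0.146) or mock replicate 3 (adjusted p = 0.0128 to 0.023). The Lx8 and Lx10 calls were also lost without CMC replicate 2, that of the second Lx2B2 fragment without CMC replicate 1 or mock replicate 1, and the Lx10 fall in Ψ-IP without input replicate 1 (adjusted p = 0.0133).

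**Figure D4:**
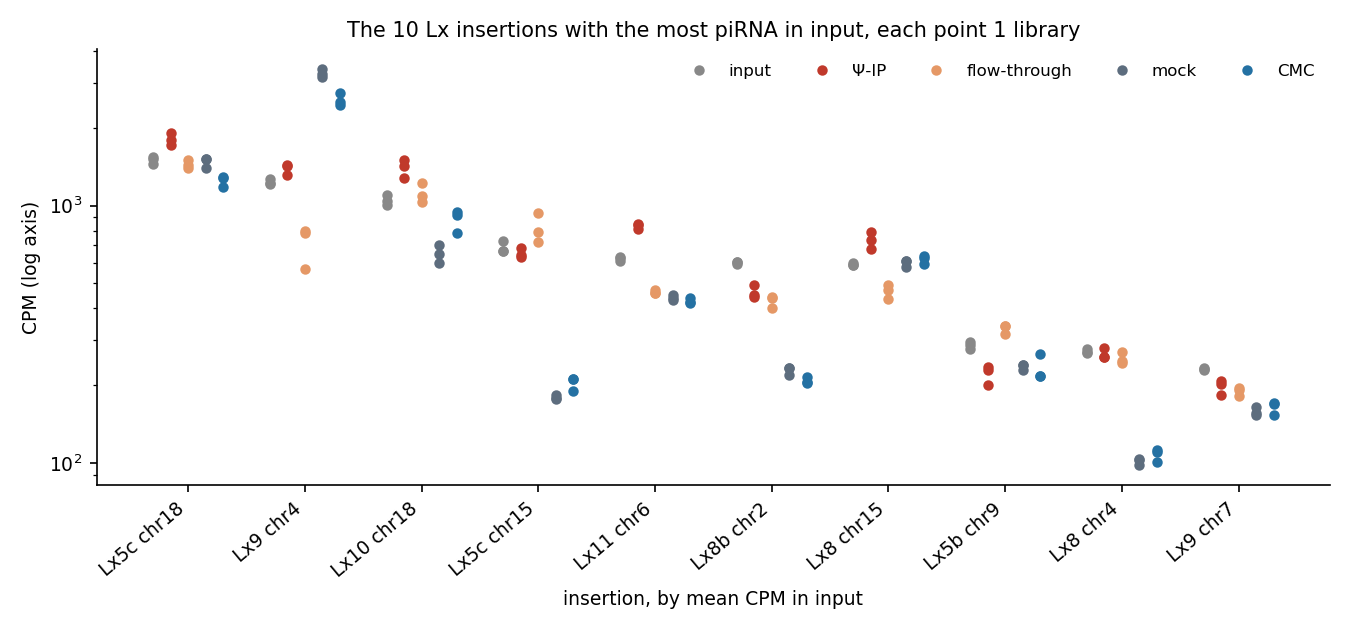
Levels (CPM, log axis) of the 10 Lx insertions most abundant in input, with 1 point per library and a colour per group. The Lx9 fragment on chromosome 4 is the highest in mock (3172 to 3398) and lower after CMC (2470 to 2736), and the Lx11 fragment on chromosome 6 is higher in Ψ-IP (814 to 852) than in input (608 to 629).

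At the level of single piRNAs, 439 of 7355 loci were higher in Ψ-IP than in input (5.97%, against 5.45% of all 686863 loci tested) and 662 were lower (9.001%, against 10.7%). The shares were close to those of all loci, and the median log2 fold change was 0.03, against -0.10 over all loci. Without input replicate 1 the counts were 202 and 385, and without input replicate 3 they were 209 and 436. Of the L1Md loci 131 of 2739 were higher and 151 lower, and of the other L1 loci 656 of 9879 and 1033. Among Lx loci that averaged 50 counts or more, 147 of 565 were higher (26.02%, against 22.6% of all 55108 loci of that abundance) and 128 lower (22.7%, against 27.8%), with a median log2 fold change of 0.22, against -0.03 over all such loci. The median rose from -0.15 in loci of at most 26 nt to 0.13 at 30 nt and 0.22 at 31 nt, and over all loci it was -0.19, -0.07 and 0.03 at these lengths.

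Calls of both directions lay side by side in the same insertions. The higher loci came from 52 insertions and the lower ones from 56. Over all loci of the tables tested, 5.45% were higher and 10.7% lower. The Lx9 fragment on chromosome 4 held the most of each, 79 and 109 of its 858 tested loci. It also had the most tested loci of the insertions named here, and the part of its size in these counts was not tested. Within it, a 30-nt piRNA at chr4:94309710-94309739 had 2.39, 1.15 and 1.38 CPM in input and 7.62, 7.78 and 7.81 CPM in Ψ-IP (log2 fold change 2.06, SE 0.29, edgeR adjusted p = 6.32e-11). A 31-nt piRNA at chr4:94309383-94309413 had 5.59, 4.47 and 5.25 CPM in input and 0.856, 0.691 and 0.209 CPM in Ψ-IP (-3.43, SE 0.37). An Lx8 fragment on chromosome 17 gave a similar pair, in which a 29-nt piRNA at chr17:27307240-27307268 rose by 2.02 (SE 0.25) and an overlapping 27-nt piRNA at chr17:27307232-27307258, with 24.7, 17.7 and 26.7 CPM in input and 2.74, 1.81 and 1.96 CPM in Ψ-IP, fell by 3.56 (SE 0.27).

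Among called loci that averaged 50 counts or more and moved alike in all 9 pairs, the remaining ones with the largest changes were a 29-nt Lx9 piRNA at chr4:94305626-94305654, which rose from 2.15, 2.41 and 2.38 CPM to 13.8, 9.59 and 9.32 CPM (log2 fold change 2.08, SE 0.27), a 33-nt Lx7 piRNA at chr5:113358175-113358207 with 5.07, 3.98 and 5.51 CPM in input and 0.0856, 0 and 0.292 CPM in Ψ-IP (-4.95, SE 0.44), and a 30-nt Lx9 piRNA at chr7:73781218-73781247 (-4.50, SE 0.40). In flow-through, the rising loci named here on chromosomes 4 and 17 lay below all their Ψ-IP libraries, and the falling ones named here lay below all their input libraries. Of the 662 lower loci, 83 had no count in any Ψ-IP library. Of the 5 single piRNAs with the highest input level, which were not chosen for their change, none passed in Ψ-IP against input. The highest, a 30-nt Lx5c piRNA at chr15:78664183-78664212, had 199, 228 and 234 CPM in input and 181, 187 and 193 CPM in Ψ-IP (-0.38, SE 0.19, edgeR adjusted p = 0.13), with groups that did not overlap.

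The next in abundance include a pair that differs by 1 base at the 3′ end. A 30-nt Lx10 piRNA at chr18:67048687-67048716 had 209, 195 and 194 CPM in input and 297, 273 and 333 CPM in Ψ-IP (log2 fold change 0.46, SE 0.19, edgeR adjusted p = 0.0548). The 29-nt piRNA with the same 5′ end, at chr18:67048688-67048716 on the minus strand, had 160, 152 and 146 CPM in input and 131, 125 and 166 CPM in Ψ-IP (-0.25, SE 0.19, adjusted p = 0.353). The groups of the longer one stood apart and those of the shorter one overlapped, and neither passed. After CMC the longer one rose by 0.49 (SE 0.11, edgeR adjusted p = 0.00616), from 99.1, 93.8 and 82.4 CPM in mock to 133, 153 and 120 CPM. The shorter one moved the same way, from 63.9, 60.2 and 53.5 CPM to 80.7, 91.9 and 73.7 CPM, and did not pass (0.41, SE 0.12, edgeR adjusted p = 0.0382). Another Lx10 piRNA of this fragment at chr18:67048612-67048641 (0.51, adjusted p = 0.0347, edgeR) and an Lx5c piRNA at chr18:67052624-67052653 (0.41, adjusted p = 0.0881) complete the 5.

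After CMC, 32 of 6335 loci were higher (0.505%, against 1.07% of 556583) and 77 were lower (1.22%, against 0.654%). The median log2 fold change was -0.07, against 0.003 over all loci. Of the L1Md loci 7 of 2249 were higher and 28 lower, and of the other L1 loci 88 of 8024 and 204. Most of the lower Lx loci, 69 of the 77, averaged 50 counts or more. They were 8.27% of the 834 Lx loci of that abundance, against 3.46% of all 87755 such loci, and 15 were higher (1.80%, against 2.22%). Of the 3413 Lx loci that averaged below 10, none was lower and 10 were higher, and the share over all loci was not computed. Called falls were small (median 0.80 on the log2 scale, against 1.64 for called rises). Whether falls of that size could be detected below 10 counts was not tested. Without CMC replicate 2, mock replicate 2 or mock replicate 3 the 109 calls became 54, 45 and 65. By length, 26 of 1304 loci of 30 nt were lower (1.99%, against 1.16% of all loci of that length) and 3 higher (0.230%, against 0.307%). Of 1501 loci of at most 26 nt, 8 were lower (0.533%, against 0.252%) and 13 higher (0.866%, against 1.51%), so that the change of direction with length was also present over all loci.

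The lower loci came from 16 insertions. The Lx9 fragment on chromosome 4 held 30 of these loci among its 801 tested, the most tested of the insertions named here. Under the same limits, the largest falls were in the Lx9 fragment on chromosome 7 within Gm10619, where molecules of 30, 31 and 32 nt share a 5′ end. The 31-nt one at chr7:73803231-73803261 had 47.7, 46.5 and 44.8 CPM in mock and 22.3, 19.0 and 17.6 CPM after CMC (log2 fold change -1.29, SE 0.12, edgeR adjusted p = 3.05e-10). The 32-nt one at chr7:73803230-73803261 fell by 1.45 (SE 0.19) and the 30-nt one at chr7:73803232-73803261 fell by 1.08 (SE 0.14). The 3 molecules moved together and differ only at their 3′ end. On chromosome 4, a 31-nt Lx9 piRNA at chr4:94309805-94309835 fell by 1.19 (SE 0.21).

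The named rises after CMC included Lx5 piRNA 6 and 2 piRNAs of the Lx11 fragment on chromosome 6. A 27-nt one at chr6:127836186-127836212 had 0.842, 0.907 and 0.624 CPM in mock and 1.72, 2.57 and 4.50 CPM after CMC (log2 fold change 1.76, SE 0.25, edgeR adjusted p = 3.15e-06), and a 29-nt one at chr6:127836118-127836146 rose by 1.11 (SE 0.21). A 27-nt Lx5c piRNA at chr15:78663794-78663820 had 1.97, 1.68 and 1.37 CPM in mock and 3.48, 3.73 and 3.62 CPM after CMC (1.05, SE 0.18), and was lower in Ψ-IP than in input (-2.66, SE 0.58).

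The 2 experiments share no library, and 3000 Lx loci were tested in both. Of these, 256 were higher in Ψ-IP than in input and 69 were lower after CMC, and 23 were both, which is 8.98% of the first list and 33.3% of the second, whereas of all 3000 the first list took 8.53% and the second 2.3%. Over all 293568 loci of the tables tested in both, 875 were in both lists (0.298%, against 0.767% of the Lx loci), which is 3.79% of the loci higher in Ψ-IP and 27.4% of those lower after CMC. Higher in Ψ-IP and higher after CMC was 1 locus, and of the 317 loci lower in Ψ-IP, 10 were lower and 4 higher after CMC. The 23 loci were abundant, with medians of 49.8 and 249 average counts in the IP and CMC experiments against 8.83 and 16.5 over all 3000, and the part of abundance in this overlap was not tested. Among the 222 Lx loci that averaged 50 counts or more in both experiments, 11 were in both lists (4.95%), against 2.19% of 24186 such loci of all kinds. Without input replicate 1 or 3 the 23 became 9 each, without mock replicate 1 or 2 they became 15 and 11, and without CMC replicate 2 or 3 they became 12 and 15. Of the 23, 8 were 30 nt long and 17 were 29 to 31 nt long.

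The 23 loci came from 6 insertions, 11 from the Lx9 fragment on chromosome 4, 7 from the Lx5c fragment on chromosome 18, 2 from an Lx8 fragment on chromosome 15 and 1 each from Lx2B2, Lx11 and Lx9 fragments. Their log2 fold changes ranged from 0.80 to 2.37 in Ψ-IP against input (median 1.30) and from -1.08 to -0.55 after CMC (median -0.77). In 22 of them the groups did not overlap in either experiment. The most abundant in input, a 30-nt Lx8 piRNA at chr15:59274225-59274254, had 13.88, 20.70 and 14.04 CPM in input and 27.7, 30.4 and 34.5 CPM in Ψ-IP (0.80, SE 0.22, edgeR adjusted p = 0.00214). It had 78.1, 83.0 and 81.3 CPM in mock and 55.1, 51.1 and 43.5 CPM after CMC (-0.76, SE 0.12, adjusted p = 2.13e-05). Its rise missed the threshold without input replicate 1 (adjusted p = 0.0634), input replicate 3 (adjusted p = 0.0756) or Ψ-IP replicate 3 (adjusted p = 0.0217).

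Among the Lx9 piRNAs of chromosome 4, a 29-nt molecule at chr4:94309813-94309841 had 8.94, 9.23 and 8.85 CPM in input, 27.1, 33.1 and 29.1 CPM in Ψ-IP and 1.68, 3.24 and 2.45 CPM in flow-through (log2 fold change against input 1.59, SE 0.23, edgeR adjusted p = 2.51e-10). It had 8.73, 8.94 and 5.92 CPM in mock and 5.79, 5.01 and 4.86 CPM after CMC (-0.64, SE 0.15, adjusted p = 0.00862), the groups being apart in both experiments. That fall missed the threshold without CMC replicate 2 or 3 or mock replicate 1 or 2 (adjusted p = 0.0342 to 0.164). The 30-nt molecules at chr4:94309818-94309847 and chr4:94309456-94309485 rose by 0.98 (SE 0.23) and 1.08 (SE 0.22) in Ψ-IP and fell by 0.77 (SE 0.12) and 0.76 (SE 0.15) after CMC, the last of which missed the threshold without CMC replicate 2 (adjusted p = 0.015) or mock replicate 2 (adjusted p = 0.0231). The exception to the separation of groups was a 31-nt Lx5c piRNA at chr18:67052219-67052249, with 6.78, 16.6 and 6.36 CPM in input and 14.3, 35.1 and 11.4 CPM in Ψ-IP, where the replicate 2 libraries were the highest of each group and 7 of 9 pairs of libraries showed the rise. Its log2 fold change was 0.89 with all libraries, and it missed the threshold without Ψ-IP replicate 2 (0.20, adjusted p = 0.587), input replicate 1 (0.68, adjusted p = 0.0875) or input replicate 3 (0.61, adjusted p = 0.128).

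**Figure D5:**
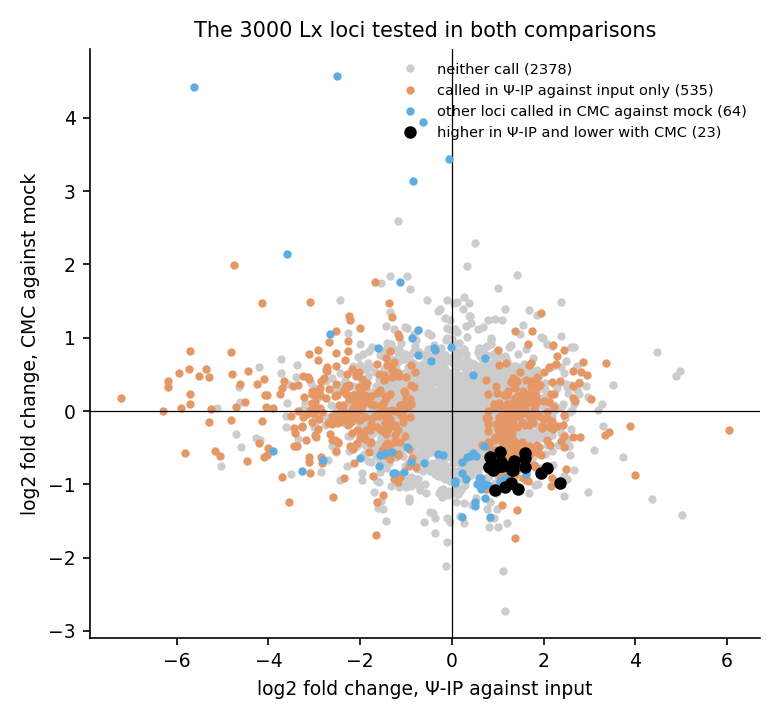
Lx loci tested in both experiments: log2 fold change in Ψ-IP against input (x axis) and CMC against mock (y axis), with 1 point per locus coloured by call. The 23 loci called higher in Ψ-IP and lower after CMC lie at the lower right, between 0.80 and 2.37 on the x axis and -1.08 and -0.55 on the y axis.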

How the data were processed

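Per the labels and the study's methods, reads of gel-selected testis small RNA were trimmed, tRNA fragments were set aside, and the remainder was aligned to mm10 and intersected with the UCSC repeat annotation and with annotated piRNA clusters. The submitters' processing notes name Bowtie2 and bedtools, without versions. The authors deposited raw counts per locus for each library, with no normalization. The CMC and mock libraries were made with the NEBNext kit and the input, Ψ-IP and flow-through libraries with the Nextflex kit.

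The members and lists were chosen with earlier results of these data known. Counts were summed by repeat family (L1 divided into Lx, L1Md and other names), by repeat name and by insertion (same-name loci, both strands, gaps of at most 1000 bases), or kept per locus, with more than 20 counts in total required. Each comparison of 3 against 3 libraries was fitted on the whole table with edgeR 4.0.16 in R 4.3.3 (TMM, quasi-likelihood test, Benjamini-Hochberg adjustment, threshold 0.01), and standard errors were derived as the log2 fold change over the root of F. Printed levels are counts per 1000000 of the library total. The script was tested on simulated data. Ratios and shares were tested by two-sided exact permutation tests in Python 3.11.15. Alternatives were DESeq2 1.42.0, its size factors, library totals, other filters, a replicate block, leaving out each library, and loci of 24 to 33 nt.

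Named subfamilies were the 10 highest in input and, per comparison, up to 5 rises and 5 falls past the threshold with an average of at least 100 counts and the same direction in all 9 pairs of libraries. Named insertions (5 highest, 4 rises, 4 falls) and loci (likewise, average of at least 50 counts) followed the same rule for Ψ-IP against input and CMC against mock, with up to 5 loci called in both. Deviations of same-numbered CMC and mock libraries from their group means correlated at 0.125, 0.146 and 0.295 over 87515 loci, so these libraries were taken as paired, from the data and not the labels. The values in the text are from the planned fits and tests without pairing, and those with it are given as an alternative. The block left every named call of that comparison in place and gave 152 Lx loci in place of 109. Total counts per library ranged from 11575705 to 58399368, and replicate pairs of member loci differed by 1.68 to 5.49 in chi-square per degree of freedom, more than counting error alone.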

Additional observations from a re-analysis of the deposited data

How the results depend on the processing

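The rise of the Lx total in Ψ-IP kept its direction and its side of the threshold under all alternatives run, with log2 fold changes of 0.13 to 0.19 against input and 0.15 to 0.30 against flow-through. The fall after CMC kept its direction and missed the threshold in 6: leaving out the 10 most abundant loci (-0.0559) and, in alternatives chosen after seeing the data, the most abundant insertion in mock (-0.0234) or the 3 most abundant insertions in input (-0.0333), and 3 single libraries, where leaving out each library gave -0.127 to -0.0908. The log2 ratio of Lx to L1Md in Ψ-IP against input, near 0, changed sign: 0.00451 in loci of 24 to 33 nt, 0.000184 in loci with more than 20 counts, and -0.0575 to 0.067 without single libraries, 0.011 without input replicate 3 among them. The cause was not tested.

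Counts of calls moved more. Leaving out each library gave 1 to 4 names and 2 to 14 insertions after CMC, 26 to 45 insertions and 587 to 1093 loci in Ψ-IP against input, 45 to 129 loci after CMC and 9 to 31 loci in both lists. Without a filter 17 insertions were called after CMC and with library totals (chosen after seeing the data) 4, the DESeq2 Wald test called 680 loci in Ψ-IP against input, and adjusted p under 0.05 gave 35 loci in both lists. With the replicate block, the CMC comparison had 4 names, 2 insertions higher and 12 lower, and 152 loci, 27 loci were in both lists, and no call named in the text changed there. Same-numbered Ψ-IP and input libraries correlated at 0.251, 0.304 and -0.030, and Ψ-IP and flow-through libraries at 0.089, 0.182 and -0.046. Replicates 1 and 2 thus varied together and replicate 3 did not, so whether the IP libraries are paired was left undecided. The block there gave 935 loci and 50 insertions against input, with Lx5c (adjusted p = 0.00486) and the Lx9 fragment at chr4:94309055-94309981 (adjusted p = 0.00251, edgeR) past the threshold. Among named items, 57 values lost the threshold and 6 passed it in single alternatives. Counts of 20 or less over an experiment were not tested, so that changes in the rarest piRNAs were not detectable at this depth.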

Other observations

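Input and mock libraries both hold testis small RNA without CMC or antibody selection, and they gave different Lx profiles. The Lx9 subfamily held 21.4% of the Lx counts in input and 40.8% in mock, Lx10 13.9% and 8.77%, and Lx8b 6.19% and 2.62%. The subfamily named Lx had 125, 129 and 120 CPM in input and 26.8, 22.4 and 23.7 CPM in mock, and the Lx10 fragment at chr8:93421117-93421384 had 58.3, 63.0 and 58.2 CPM in input and 4.55, 3.75 and 3.47 CPM in mock. The Lx2B2 fragment at chr2:151153624-151153777 went the other way, with 12.6, 15.2 and 13.7 CPM in input and 127, 153 and 129 CPM in mock. Within each group the libraries lay close together and the groups did not overlap. The library kits differed between the sets, and the titles do not say whether the mock RNA passed through the treatment steps. Kit, handling and RNA sample cannot be told apart, and no test was made.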
